A study of Mus musculus with 32 samples.

Results

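RNA levels of 39 germline and meiosis genes were compared between WT and Eed-/- mouse embryonic stem cells (mESCs), pluripotent cells of the early embryo kept in culture. The genes were chosen by symbol as known genes of germ cells, meiosis and the piRNA pathway, and all 39 were among the 24028 symbols listed. RNA-seq was run on total RNA depleted of ribosomal RNA, with 1 library per genotype. The labels name TT2, a line of mouse embryonic stem cells, for both libraries and give no clone or passage. Eed-/- cells are labelled as lacking Eed, which encodes the subunit of Polycomb repressive complex 2 (PRC2) that binds methylated H3K27, and the labels name no added agent for either culture. Both were grown on gelatin in serum with leukemia inhibiting factor. The Eed-/- samples of other assays in the study are labelled with another line. With 1 library per genotype there is no replicate check, and genotype, line and culture cannot be told apart.

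The Eed transcript did not mark the genotype. Its deposited FPKM, a level scaled to transcript length and sequencing depth, was 63.0 in WT against 70.9 in the other library, a change of 0.40. The second library is therefore called the library labelled Eed-/-. The paper reports checking the loss of Eed through H3K27me3, by western blot and ChIP-seq, which were not analysed here. RNA level alone does not settle the genotype. Changes are differences in log2(FPKM + 1) after quantile normalization, the library labelled Eed-/- minus WT, and this scale makes changes at low levels look smaller than they are. The steps of low values gave a depth of 7230000 fragments in the WT library and 6450000 in the other, so that a 2 kb transcript at an FPKM of 2 holds 26.3 and 23.5 fragments. Fragment ratios below are the library labelled Eed-/- over WT, scaled to the median ratio of expressed genes, and their 95% intervals cover counting error only.

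Germ cells form from the epiblast and later enter meiosis, in which homologous chromosomes pair along a protein axis, are joined by the synaptonemal complex and recombine. Small RNAs bound by PIWI proteins (piRNAs) silence transposons in these cells. Many genes of these programs have CpG-rich promoters that are silenced in somatic cells by DNA methylation or by a form of PRC1 that is recruited through E2F6 and MGA/MAX, factors that bind E2F motifs and E-boxes.

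Both libraries had the profile of mESCs. All 10 mESC markers were expressed in both, from 49.2 for Esrrb to 393 for Pou5f1, with summed levels of 1631 and 1770. Of 8 spermatid markers, 7 were listed at 0 in both libraries, and Acrv1 was at 0.150 and 0.169. Feeder fibroblast markers summed to 2.15 in WT against 7.52 in the library labelled Eed-/-, of which Thy1 took 0.976 and 6.97, and the collagen genes Col1a1, Col1a2 and Col3a1 were under 0.5 in both. Of the 10, 3 were used, and Thy1 was at least 2-fold higher. Primitive endoderm markers were mostly higher in the library labelled Eed-/-. Their summed level was 26.4 and 84.9, most of it from Lama1, Nid1, Col4a1 and Col4a2. These 4 of the 9 used (44.4%) were at least 2-fold higher, against 3.80% of all symbols. Gata4 was at 0.431 and 1.35, Sox7 at 0.314 and 1.15, and Pdgfra at 0.196 and 0.534. Sox17 was listed at 0 in WT and was at 0.449 in the other library. Dab2 was at 0.499 and 0.515, and Foxa2, which was not used, at 0.0731 and 0. Of 12 spermatogonial and oocyte markers that are not members, 11 were used, with a median change of -0.08 and summed levels of 77.0 and 102. Uchl1, at 35.4 and 44.2, and Etv5, at 32.0 and 43.4, made up most of these sums. Zbtb16, Gfra1, Ret, Bmp15, Oosp1, Nobox and Figla were under 0.5 in both libraries. Of the 11, 2 (18.2%) were at least 2-fold higher and 1 (9.09%) lower, against 3.80% and 3.98% of all symbols. Whether any of the differences below belong to such cells was not tested, and in bulk RNA fewer cells of a type and less RNA per cell cannot be told apart.

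Germline genes were spread in both directions between the libraries. A mean normalized FPKM of 0.1 was reached by 36 members. Relative to WT, 6 of these (16.7%) were higher by 2-fold or more in the library labelled Eed-/-, and 7 (19.4%) were lower. Over 14835 symbols used, 3.80% were 2-fold higher and 3.98% were 2-fold lower, 7.78% in either direction. At 3-fold, 4 members were higher and 1 was lower, against 1.02% and 0.923% of symbols. The higher members were Dazl, Sycp1, Syce1, Hormad2, Smc1b and Mael, and the lower ones were Ddx4, Nanos3, Stra8, Hormad1, Rec8, Tdrd5 and Tex14. The median change of the 36 was -0.14, with a range from -2.32 to 2.34, against 0.01 for all symbols used. The median size of a change, without its sign, was 0.51 for members and 0.32 for all symbols. In linear fragment ratios, 11 of the 39 members were above 1 and 10 below 1 beyond their counting interval, 21 in either direction. Of 20005 symbols, 16.2% were above, 14.9% below and 31.0% either. These shares have no filter on level, and symbols at 0 in both libraries cannot pass. Of all 24028 symbols 7210 were at 0 in both, against 1 of the 39 members, so the shares are not matched for level. The members nearest to the 2-fold threshold were Hormad1 (-1.05) and Hormad2 (1.10) inside it, and Tdrd7 (0.92) and Tex15 (0.66) outside.

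**Figure D1:**
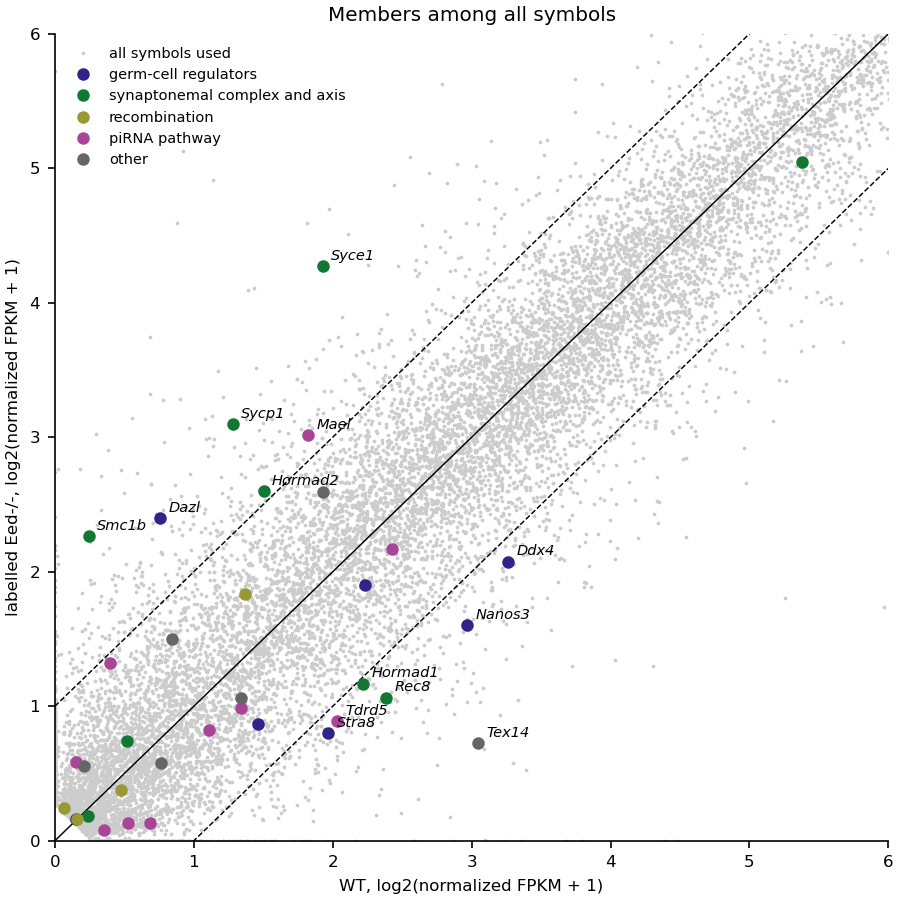
Each grey point is 1 symbol and each coloured point 1 member, with log2(normalized FPKM + 1) for WT (x axis) and the library labelled Eed-/- (y axis). The solid line marks equal levels and the dashed lines 2-fold on this scale. The 6 members above the upper line lie at WT levels under 3 FPKM, and the 7 below the lower line spread along the WT axis, with Tex14 farthest out.

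The members were present at low levels, and the identity of the expressed ones differed between the libraries. At an FPKM of 2 or more, taken here as the expressed level, there were 13 members in WT against 12 in the library labelled Eed-/-. Of all symbols, 39.0% and 38.4% reached it. Only 7 members reached it in both, with 6 in WT alone and 5 in the other library alone. Among all symbols, 8687 reached it in both, 679 in WT alone and 540 in the other library alone, and these were not matched for level. Nanos3 was just under it in the library labelled Eed-/-, at 1.97, or 2.03 after normalization. After quantile normalization 13 members reached it in each library. Dmc1, at 1.63 and 2.48, crossed it within counting error. The most abundant member was Syce2 in both libraries. The next in WT were Ddx4, Tex14 and Nanos3, and the next in the library labelled Eed-/- were Syce1, Sycp1 and Mael.

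The share of members past 2-fold also differed by level. Between 2 and 10 FPKM on average, 9 of 13 members (69.2%) were past 2-fold, 4 higher and 5 lower, against 11.5% of 4451 symbols. Between 0.5 and 2 FPKM, 3 of 11 members were past it, against 10.4% of symbols, and from 10 to 100 FPKM 1 of 2 was, against 6.77%. Below 0.5 FPKM no member and no symbol could pass on this scale, so the 10 members used there carry no information on 2-fold change.

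**Figure D2:**
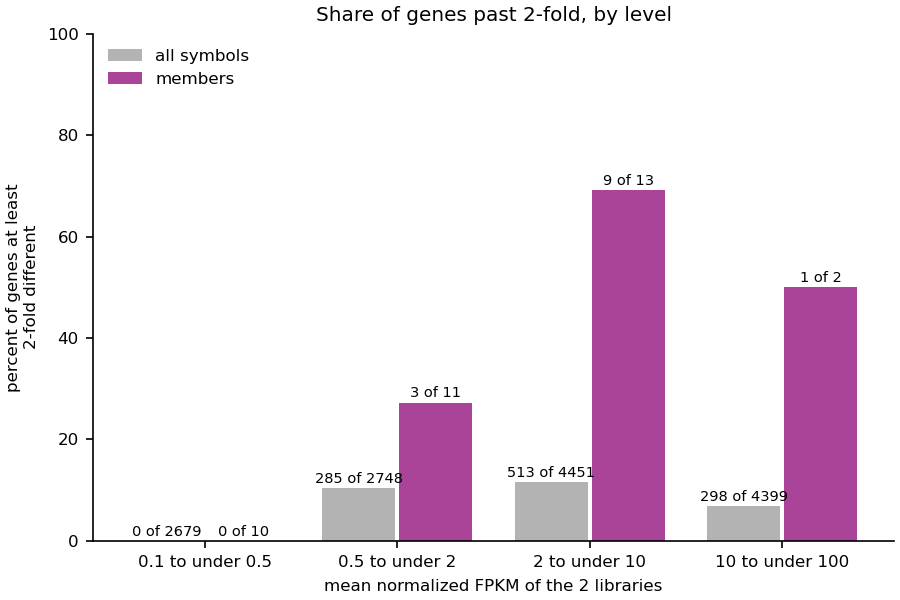
Bars give the percent of genes at least 2-fold different in either direction, for all symbols (grey) and members (purple), by mean normalized FPKM of the 2 libraries, with the numbers of genes above each bar. The members' bar is highest between 2 and 10 FPKM, where 9 of 13 are past 2-fold.

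The promoters of the members were described by their CpG content and by E-box and E2F motifs, which varied among them. RefSeq promoters, 250 bases before to 50 after the start site, were matched by symbol for 34 of the 39 members in a table for GRCm38.p6. Spo11, Tex15, Dnd1, Tdrd6 and Piwil2 have no entry there. Of several entries for a symbol the first was used, 27025 of 32851. The median CpG observed/expected ratio was 0.70 for the 34 members and 0.39 for all 27025 promoters, or 0.58 for those of symbols in the FPKM tables. CACGTG, the E-box core bound by MGA/MAX, was found in 12 of 34 member promoters (35.3%) and in 7.24% of all promoters. GCGGGA, an E2F core, was found on either strand in 14 (41.2%) and in 20.0% of all. Both motifs were found in 6 members (17.6%) and in 2.05% of all promoters, and no E-box shared bases with an E2F motif in a member. Neither motif was found in 14 members, and 12 of the 34 were below a CpG ratio of 0.6. Some start sites used lay well inside the GENCODE gene, such as those of Prdm1, Msh4, Prdm9 and Stra8. Their CpG ratios were 0.77, 0.44, 0.35 and 0.43. A match to a GENCODE transcript start is given only for the 6 promoters printed below. Among promoters of symbols in the FPKM tables the E-box was in 8.21% and the E2F motif in 25.9%. All promoters with an E-box had a median CpG ratio of 0.68 and those with an E2F motif 0.80, and the shares were not matched for CpG content.

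The motifs were present in members that were higher, lower and under 2-fold. Of the 6 higher members, 2 had an E-box and 3 an E2F motif, and of the 7 lower members, 2 had an E-box and 5 an E2F motif. Of the 20 under 2-fold with a promoter, 7 had an E-box and 6 an E2F motif, and Sycp3 and Slc25a31 had both. The 4 promoters with both motifs that belong to genes past 2-fold, in opposite directions, are shown with those of the members with the largest fragment ratio in each direction, Smc1b and Tex14. Each runs 5′ to 3′ on the gene's strand from 250 bases before the RefSeq start site through the first 20 bases of the transcript, with E-boxes and E2F motifs of either strand in capitals (GCGGGA, or TCCCGC where the motif is on the opposite strand), and each start site is also a GENCODE transcript start. Positions are from an exact match to mm9. Sycp1 lies at chr3:102740004-102740273 on the minus strand, Mael at chr1:168168856-168169125 on the minus strand, Ddx4 at chr13:113442499-113442768 on the minus strand, Hormad1 at chr3:95363349-95363618 on the plus strand, Smc1b at chr15:84962368-84962637 on the minus strand and Tex14 at chr11:87218317-87218586 on the plus strand.
Sycp1: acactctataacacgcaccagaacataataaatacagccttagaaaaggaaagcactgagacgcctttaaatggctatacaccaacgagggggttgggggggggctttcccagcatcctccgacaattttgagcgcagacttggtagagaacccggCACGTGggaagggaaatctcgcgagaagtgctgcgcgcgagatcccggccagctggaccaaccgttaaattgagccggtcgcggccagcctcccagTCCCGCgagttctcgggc
Mael: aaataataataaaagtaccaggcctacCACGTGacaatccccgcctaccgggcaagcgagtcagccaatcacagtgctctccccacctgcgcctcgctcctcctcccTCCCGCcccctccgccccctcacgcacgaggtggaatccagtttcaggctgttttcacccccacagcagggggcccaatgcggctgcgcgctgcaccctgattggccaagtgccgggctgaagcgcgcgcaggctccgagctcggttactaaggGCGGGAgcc
Ddx4: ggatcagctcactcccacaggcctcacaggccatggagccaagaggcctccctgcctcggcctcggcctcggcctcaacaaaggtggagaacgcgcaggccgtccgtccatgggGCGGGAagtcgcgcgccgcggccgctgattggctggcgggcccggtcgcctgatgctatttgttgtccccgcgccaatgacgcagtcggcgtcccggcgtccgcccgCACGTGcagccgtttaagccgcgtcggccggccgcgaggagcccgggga
Hormad1: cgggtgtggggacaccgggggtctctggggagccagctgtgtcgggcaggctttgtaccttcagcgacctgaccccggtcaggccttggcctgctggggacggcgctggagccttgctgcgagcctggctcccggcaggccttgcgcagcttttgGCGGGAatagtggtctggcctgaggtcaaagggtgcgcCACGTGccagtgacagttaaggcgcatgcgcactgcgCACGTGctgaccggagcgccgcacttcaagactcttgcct
Smc1b: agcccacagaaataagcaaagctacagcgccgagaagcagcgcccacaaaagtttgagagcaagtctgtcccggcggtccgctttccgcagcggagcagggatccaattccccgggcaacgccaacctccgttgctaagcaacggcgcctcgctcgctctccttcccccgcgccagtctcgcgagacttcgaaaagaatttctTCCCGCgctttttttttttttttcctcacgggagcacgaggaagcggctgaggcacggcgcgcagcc
Tex14: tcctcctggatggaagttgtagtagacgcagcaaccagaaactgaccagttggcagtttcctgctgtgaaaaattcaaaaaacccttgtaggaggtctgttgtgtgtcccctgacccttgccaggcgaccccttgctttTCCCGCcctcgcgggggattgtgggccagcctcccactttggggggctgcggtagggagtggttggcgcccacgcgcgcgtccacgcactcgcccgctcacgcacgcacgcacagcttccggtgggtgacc

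Motif positions are those of the first base of the match as printed, counted from the start site. Hormad1 held a pair of E-boxes near its start site, at -57 and -20, and Ddx4 a single one at -29. In Sycp1 and Mael the E-box was at -94 and -223. Stk31 and Brdt, whose fragment ratios were above 1 beyond counting error, also had one near the start site, at -55 and at -78. Tdrd1, whose ratio of 0.179 was below 1 beyond counting error, had the nearest one among the members, at -11. Sycp3, for which no difference was detectable, held a pair near its start site. Of the other members with an E-box, Slc25a31 had it at -93 and Mov10l1 at -246. Piwil1 and Tdrd9 each held a pair farther out than that of Sycp3. E-boxes near the start site were thus found in members of either direction. Smc1b and Tex14, which had the highest and the lowest fragment ratio, each had an E2F motif on the strand opposite to the gene, at -47 and -111, and no E-box. A match is a description of the letters in this window and not a bound site.

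**Figure D3:**
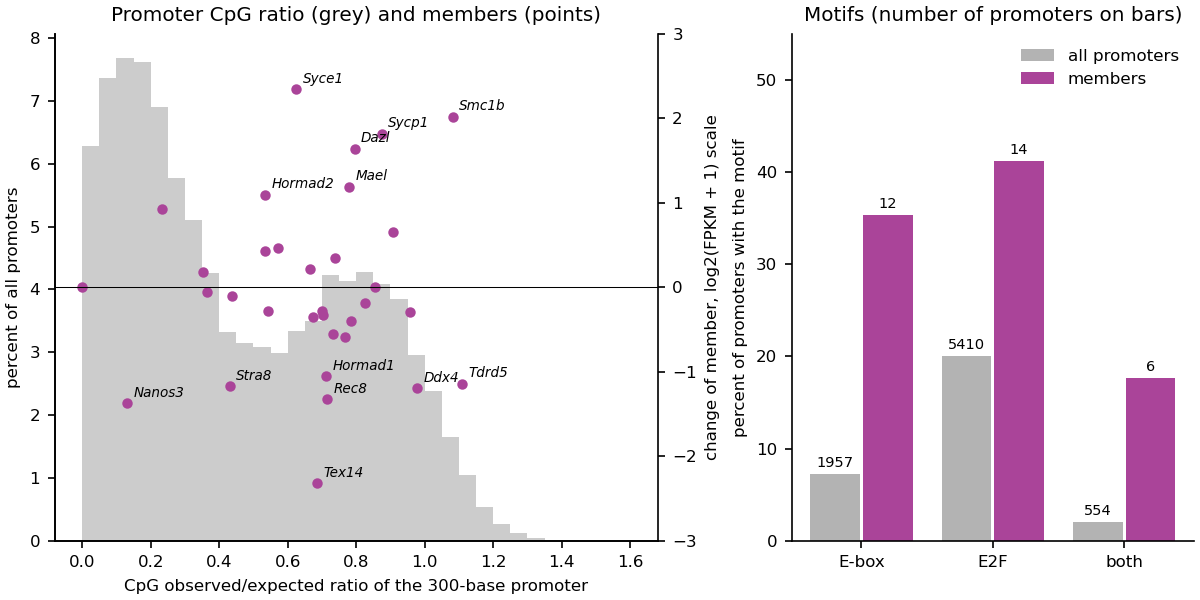
On the left, grey bars give the percent of all promoters (left axis) by CpG observed/expected ratio, and points give the change of each member used (right axis) at its own ratio, with members past 2-fold named. On the right, bars give the percent of promoters with each motif for all promoters (grey) and members (purple). Members past 2-fold lie between 0.53 and 1.08 when higher and between 0.13 and 1.11 when lower, and the member bars are above the bars of all promoters.

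The regulators of germ cell formation were split. Of 7 members, 1 (14.3%) was at least 2-fold higher and 3 (42.9%) at least 2-fold lower, with a median change of -0.59. The shares of all symbols were 3.80% and 3.98%. Dazl, an RNA-binding protein required for germ cell development (chr17:50418719-50432924), had an FPKM of 0.709 in WT against 4.08 in the library labelled Eed-/-. These values stand for 14 and 73 fragments, a change of 1.64 and a ratio of 6.44 (3.66 to 12.5). Dazl was thus below the expressed level in WT and above it in the other library. Ddx4, the germ-cell RNA helicase also called MVH (chr13:113388541-113442518), went the other way, from 9.07 to 3.08. Its change was -1.19, from 175 to 53 fragments, a ratio of 0.379 (0.274 to 0.519). Ddx4 stayed above the expressed level in both libraries.

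Nanos3 and Stra8 were also lower. Nanos3, an RNA-binding protein that primordial germ cells need to survive (chr8:86697632-86700451), was at 7.21 in WT against 1.97 in the other library, a change of -1.37. Only 29 and 7 fragments stood behind it, a ratio of 0.305 (0.112 to 0.706). Nanos3 lies on chromosome 8, whose 702 symbols used had a median change of -0.38, and relative to that median its change was -0.99, just short of 2-fold. Stra8, which retinoic acid induces before meiosis (chr6:34870163-34889342), was at 3.03 and 0.728, a change of -1.17. Its 28 and 6 fragments gave a ratio of 0.269 (0.0910 to 0.661). Prdm1, which encodes the BLIMP1 repressor that specifies primordial germ cells, was at 1.81 and 0.812, a change of -0.59 that was under 2-fold on this scale, with a ratio of 0.501 (0.311 to 0.801). Dnd1, an RNA-binding partner of NANOS proteins, was at 3.85 and 2.64, and its ratio of 0.767 (0.440 to 1.38) was within counting error. Its exons overlap those of Wdr55 on the opposite strand by 38 bp. Nanos2, which maintains spermatogonial stem cells, had 1 fragment in each library.

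The genes of the synaptonemal complex and the chromosome axis were split, with a median change of 0.22. Of 9, 4 (44.4%) were at least 2-fold higher and 2 (22.2%) at least 2-fold lower, against 3.80% and 3.98% of all symbols. Syce1, a protein of the central element (chr7:147963128-147973753), was at 2.90 in WT against 17.3 in the library labelled Eed-/-. Its change of 2.34 was the highest of the members, with 27 and 143 fragments and a ratio of 6.65 (4.38 to 10.4). Sycp1, the transverse filament protein that bridges the paired axes (chr3:102622422-102740023), was at 1.44 and 7.14, a change of 1.82. Its 34 and 150 fragments gave a ratio of 5.53 (3.79 to 8.28). Both genes were thus present in WT at a low level and several times more abundant in the other library.

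Among axis genes, the cohesin subunits Smc1b and Rec8 and the related Hormad2 and Hormad1 went in opposite directions, while for Sycp2 and Sycp3, described below, no difference was detectable. Smc1b, the meiotic cohesin subunit (chr15:84895121-84962387), was at 0.179 and 3.65, a change of 2.02. It had 5 fragments in WT against 91 in the library labelled Eed-/-, and its ratio of 22.8 (9.43 to 72.0) was the largest of the members. Rec8, the meiotic kleisin subunit of cohesin (chr14:56236874-56244232), was at 4.42 and 1.07, a change of -1.32. Its 64 and 14 fragments gave a ratio of 0.272 (0.142 to 0.494). The cohesin subunit that was low in WT was therefore the higher of the pair in the other library. Hormad2 (chr11:4245817-4341108), 1 of 2 HORMA-domain proteins that mark unpaired axes, was at 1.90 and 4.79, a change of 1.10 with 16 and 36 fragments. Hormad1 (chr3:95363599-95391593), the other, was at 3.79 and 1.22, a change of -1.05 with 28 and 8 fragments. The ratio was 2.83 (1.53 to 5.44) for Hormad2 and 0.360 (0.141 to 0.807) for Hormad1, so the intervals did not overlap. On the deposited FPKM, without normalization, Hormad2 was just under 2-fold.

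The other structural genes differed less. Syce2, a second central element protein, was the most abundant member at 43.3 and 29.7, a change of -0.33 that was under 2-fold, with a ratio of 0.768 (0.661 to 0.891). Syce2 lies on chromosome 8, and its change was smaller in size than that chromosome's median. Sycp3, of the axial element, was at 0.438 and 0.657 from 3 and 4 fragments, and its exons overlap those of Chpt1 on the opposite strand by 660 bp. The libraries were strand-specific, but whether counting used strand is not given in the sources used here, so its level may hold reads of Chpt1. Sycp2, its partner, was at 0.176 and 0.141, from 7 and 5 fragments. At these depths a difference in Sycp2 or Sycp3 was not detectable.

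No gene of meiotic recombination passed 2-fold, and 4 of the 5 were below an FPKM of 0.5 in both libraries, where 2-fold cannot be passed on this scale. Dmc1, the meiotic strand-exchange recombinase, was at 1.63 in WT against 2.48 in the library labelled Eed-/-, and its ratio of 1.70 (0.954 to 2.97) included 1. Msh4 and Msh5, which stabilize recombination intermediates, were at 0.395 and 0.295 and at 0.111 and 0.124. Prdm9, the histone methyltransferase that places recombination hotspots, had 1 fragment in WT against 4 in the other library. Spo11, which makes the meiotic double-strand breaks, was listed at 0 in both, and 3 fragments, the limit taken for a count of 0, correspond to an FPKM of 0.271 in WT against 0.304 in the other library. Levels were thus low in this group, and only Dmc1 was above an FPKM of 2, in the library labelled Eed-/-.

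**Figure D4:**
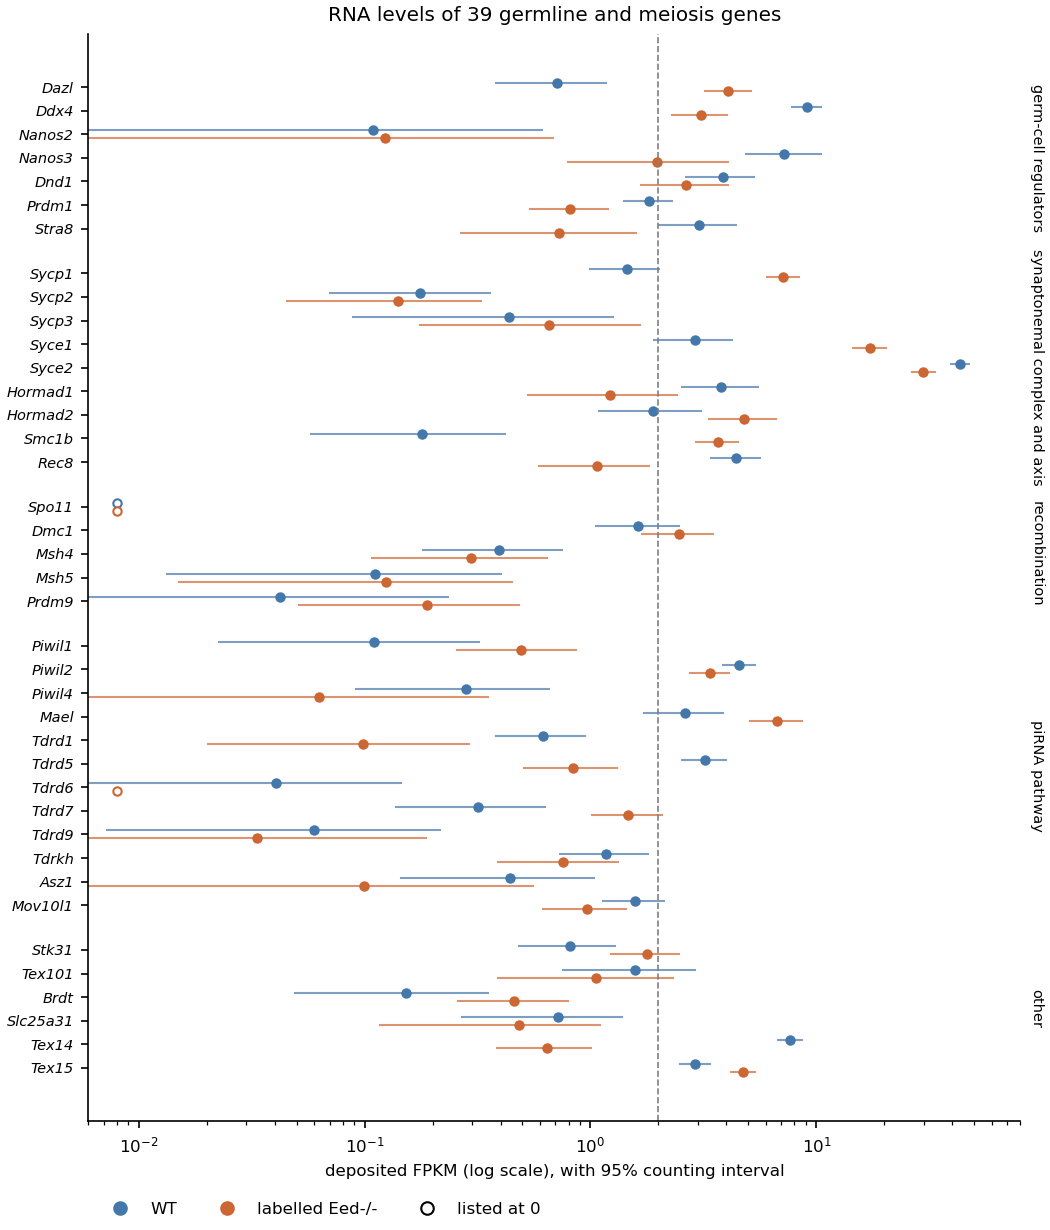
Deposited FPKM on a log axis for each member by role, in WT (blue) and in the library labelled Eed-/- (orange), with 95% counting intervals as lines, open circles for values listed at 0, and the dashed line at an FPKM of 2. Smc1b, Syce1, Sycp1 and Dazl show well separated points with orange to the right, and Tex14, Ddx4, Rec8 and Tdrd5 with blue to the right.

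The piRNA pathway held 1 gene past 2-fold in each direction. Of 12 members, 10 were used, and 10% were higher and 10% lower, against 3.80% and 3.98% of all symbols, with a median change of -0.28. Mael, a component of the germ granule called nuage (chr1:168131516-168168875), was at 2.62 and 6.69, a change of 1.19. Its 26 and 59 fragments gave a ratio of 2.85 (1.77 to 4.70). Tdrd5, a Tudor-domain protein of the same granules (chr1:158185426-158233795), was at 3.21 and 0.835, a change of -1.14 with 81 and 19 fragments and a ratio of 0.291 (0.168 to 0.489). Both lie on chromosome 1, whose 752 symbols used had a median change of -0.29. Relative to that median Mael was at 1.48 and Tdrd5 at -0.85, under 2-fold.

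Of the PIWI genes, whose proteins bind the piRNAs, Piwil1 and Piwil4 averaged under 0.5 FPKM and could not pass 2-fold on this scale. Piwil2 (MILI) was the most abundant at 4.56 in WT against 3.37 in the library labelled Eed-/-, and was under 2-fold, with a ratio of 0.826 (0.639 to 1.07). Piwil1 (MIWI) was at 0.110 and 0.494, from 3 and 12 fragments, and Piwil4 (MIWI2) at 0.281 and 0.0631, from 5 and 1. Piwil4 exons overlap Gm10706 on the opposite strand by 137 bp. The Piwil1 ratio of 5.01 (1.35 to 27.7) was above 1 beyond counting error, and the interval of Piwil4 included 1.

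Tdrd7 and Tdrd1, 2 other Tudor-domain genes, differed in linear ratio beyond counting error and were under 2-fold on the log2(FPKM + 1) scale. Tdrd7 was at 0.319 and 1.47, a change of 0.92, with 8 and 33 fragments and a ratio of 5.17 (2.34 to 13.0). Tdrd1 was at 0.618 and 0.0988, a change of -0.55, with 21 and 3 fragments and a ratio of 0.179 (0.0342 to 0.600). The 2 therefore went in opposite directions, as Mael and Tdrd5 did. Tdrkh, which anchors the pathway at mitochondria, was at 1.18 and 0.753, and Mov10l1, the helicase that feeds RNA into the pathway, at 1.57 and 0.961, both with intervals that included 1. Asz1, a mitochondrial partner, was at 0.442 and 0.0993 from 5 and 1 fragments. Tdrd9 had 2 fragments and 1, and Tdrd6 2 fragments in WT and a value listed at 0 in the other library, and neither was used.

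Of the remaining testis and germ-cell genes, 1 of 6 (16.7%) was at least 2-fold lower and none was higher, with a median change of 0.08. Among all symbols 3.98% were lower and 3.80% higher. Tex14, which forms the bridges between dividing germ cells (chr11:87218567-87369325), was at 7.67 in WT against 0.640 in the library labelled Eed-/-. This change of -2.32 was the lowest of the members, from 254 to 19 fragments, a ratio of 0.0933 (0.0555 to 0.150). Tex14 thus went from the third most abundant member to the 25th. Tex15, needed for double-strand break repair in meiosis, was at 2.91 and 4.75, a change of 0.66. With 173 and 252 fragments its ratio of 1.82 (1.50 to 2.23) was above 1 beyond counting error, and relative to the median of chromosome 8, where it lies, its change was 1.04.

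Stk31, a kinase-domain protein of the testis, was at 0.814 and 1.77, with a ratio of 2.44 (1.34 to 4.57). Brdt, the testis bromodomain protein that binds acetylated histones, was at 0.153 and 0.461 from 5 and 14 fragments, a ratio of 3.37 (1.19 to 12.5). Both were above 1 beyond counting error and under 2-fold on the log2(FPKM + 1) scale. Tex101, a sperm-surface glycoprotein, was at 1.57 and 1.06, and Slc25a31, the ADP/ATP carrier of the testis, at 0.716 and 0.481. Neither difference was detectable at this depth.

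**Figure D5:**
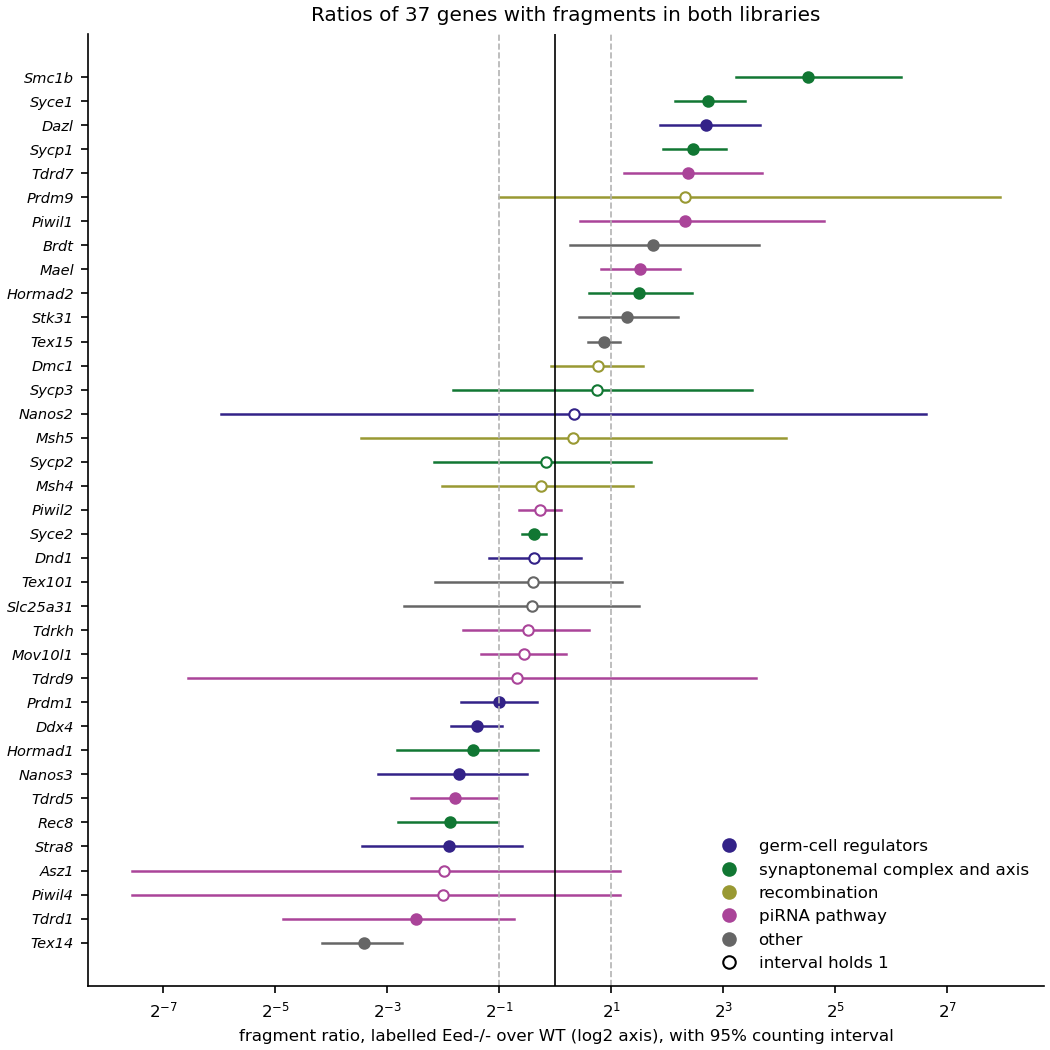
Fragment ratio of each of the 37 members with fragments in both libraries, the library labelled Eed-/- over WT, on a log2 axis with its 95% counting interval, coloured by role. Open points have an interval that includes 1, and dashed lines mark ratios of 0.5 and 2. Smc1b is at the top at 22.8 and Tex14 at the bottom at 0.0933, and synaptonemal and axis genes (green) appear at both ends.

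Other germline genes that are not members behaved in a mixed way as well. Of 53 listed, 49 had a value and 41 were used, with a median change of 0.03. Of the 41, 6 (14.6%) were at least 2-fold higher and 4 (9.76%) at least 2-fold lower, against 3.80% and 3.98% of all symbols. Several of them, such as Smc1a, Smc3 and Sun1, also serve dividing somatic cells. The most abundant were Tex19.1, a germline gene of mESCs, at 35.4 and 72.4, Smc3, the cohesin subunit shared by mitosis and meiosis, at 46.1 and 62.5, and Smc1a, the mitotic counterpart of Smc1b, at 30.9 and 59.0. Smc1a lies on the X chromosome, which holds no member and whose symbols had a median change of 0.46. Rpl10l, the testis retrocopy of a ribosomal protein gene with which it may share reads, was at 13.0 and 45.3, and Zp3, a protein of the egg coat that is also among the oocyte markers above, at 2.54 and 6.67. Rec114, which supports double-strand break formation, was at 3.71 and 8.79, and the tubulin gene Tuba3a at 7.99 and 15.7. On the lower side, Dmrt1, a regulator of testis germ cells, was at 14.2 and 2.62, and Tdrd12, a piRNA-pathway Tudor gene, at 46.0 and 11.2. The other two that were lower were Mnd1, which works with DMC1, at 10.1 and 3.79, and the helicase gene Ddx25 at 6.00 and 2.07. Rec114, Tuba3a, Mnd1 and Ddx25 were named after their values were seen.

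The genes known to silence the germline program were present in both libraries. Of 25 repressor genes, none was at least 2-fold higher and 1 (4%) was lower, with a median change of 0.12. Among all symbols 3.80% were higher and 3.98% lower, so the share of lower repressors was near that of all symbols. The most abundant were Trim28, the co-repressor of zinc-finger proteins, at 513 in both libraries, Uhrf1, which recruits DNMT1, at 79.2 and 91.7, and the histone deacetylase gene Hdac2 at 79.6 and 71.7. The lower one was Tfdp1, the dimerization partner of E2F proteins, at 53.5 and 21.4, a change of -1.07. Tfdp1 lies on chromosome 8, whose symbols had a median change of -0.38, and relative to that median it was under 2-fold. E2f6 was at 4.01 and 3.96, Mga at 22.3 and 29.1 and Max at 24.7 and 22.0, all under 2-fold. These 3 encode the factors that bind the motifs described above and are named here for that reason, after their values were seen.

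Regulators of primordial germ cells and pluripotency also went both ways, with a median change of 0.07. Of 18, 2 (11.1%) were at least 2-fold higher and 3 (16.7%) lower, against 3.80% and 3.98% of all symbols. The 10 mESC markers above are among these 18 genes. The most abundant were Pou5f1 at 393 and 373, Dppa5a at 250 and 372 and Zfp42 at 131 and 272. Prdm14, which acts with Prdm1 and Tfap2c in specifying primordial germ cells, was at 6.36 and 18.5, and Prdm14 and Zfp42 were the higher genes. Tfap2c was at 39.8 and 9.21, Ifitm3, a surface marker of the same cells, at 98.2 in WT with a fragment ratio of 0.308, and Dppa3 at 38.4 and 15.5, and these 3 were the lower genes. Genes of the 2-cell-like state, which include the Zscan4 cluster, were mostly undetected, with 12 of 18 listed at 0 in both libraries and 2 used, Gata2 and Tcstv1, with changes of -0.15 and -0.27. Of 11 PRC2 genes, 1 (9.09%) was lower, against 3.98% of all symbols, and the median change was 0.07. It was Phf19, an accessory subunit, at 13.7 and 2.61. The most abundant PRC2 genes were Jarid2 at 90.5 and 80.7, Rbbp7 at 96.2 and 66.6, and Suz12 at 67.3 and 67.5.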

How the data were processed

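RNA-seq of WT and Eed-/- mESCs was analysed, 1 library each. According to the labels, the authors mapped reads to mm9 with TopHat2 2.0.11 and quantified them with Cufflinks 2.2.1, and deposited 1 FPKM value for each gene symbol. The annotation and the use of strand in counting are not given in the sources used here. The other assays of the series were not analysed here.

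Each library lists 24525 values for 24028 symbols, and those of 268 repeated symbols were summed. FPKM were quantile-normalized, as in the study, and compared as log2(FPKM + 1), for symbols whose normalized FPKM averaged 0.1 or more, with 2-fold as the threshold. With 1 library per group no test was made and counts and medians describe each list. Depth was recovered from 5103 single-transcript genes of 1000 bp or more, after subtracting 180 bp from each length. A tolerance of 0.1 around whole fragments held 80.1% of 773 low values in WT and 80.5% of 877 in the other library. Most members have several transcripts. For such genes the length used, among the longer transcripts, was the one that put both fragment numbers nearest to whole numbers. Their fragment numbers, and the intervals built on them, are therefore approximate. Ratio intervals (Clopper-Pearson, conditional on the summed fragments) are exact only if the fragment numbers are right. Positions and transcript lengths came from GENCODE vM1 on NCBIM37 (mm9). Of the members, none had a near-identical copy in the genome (80% of the transcript at 95% identity, minimap2 2.31).

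Every member is accounted for. Values are given for the 27 members at an FPKM of 0.5 or more in either library or changed 2-fold, and the other 12 lay between 0 and 0.494. Of each other list the 3 most abundant genes and up to 5 changed 2-fold are named. Genes named beyond these rules were named after their values were seen. The members, the lists and these rules were chosen with earlier results of these data known. The lists were mESC, feeder fibroblast, primitive endoderm, spermatogonial and oocyte, and spermatid markers, other germline genes, repressors, regulators of primordial germ cells and pluripotency, 2-cell-like genes and PRC2 genes. Alternatives were the deposited FPKM, median-ratio scaling, other pseudocounts, filters, thresholds and expressed levels, repeated symbols left out, and centring on each chromosome's median. The computations were tested on simulated data, with matplotlib 3.10.9, numpy 2.4.6, scipy 1.17.1 and pandas 2.3.3 under Python 3.11.15.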

Additional observations from a re-analysis of the deposited data

How the results depend on the processing

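All 13 members past 2-fold kept their direction with the deposited FPKM, median-ratio scaling, repeated symbols left out and centring on each chromosome's median. The pseudocounts of 0.1 and 0.01 cannot change a direction and are no check of it. Hormad2 came under 2-fold with the deposited FPKM, where the median of all symbols was -0.09. Nanos3 and Tdrd5 came under it with centring on the chromosome, where Tex15 passed it. A smaller pseudocount lets genes with low values pass. At 0.1 there were 10 higher members (11.4% of symbols) and 10 lower (12.0%). At 0.01 there were 11 higher (12.9%) and 11 lower (13.4%), with a median change of -0.36. At a 3-fold threshold 4 were higher (1.02%) and 1 lower (0.923%), Tex14. At an expressed level of 1 there were 20 members in WT against 18 in the other library, and at 0.5 there were 24 in WT against 25 in the library labelled Eed-/-. No paired analysis was possible because each genotype has 1 RNA library and the labels give no shared replicate numbers. The spread between cultures is unknown, and counting intervals leave it out.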
